A study of Mus musculus with 20 samples.

Results

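The postsynaptic density is the protein mesh beneath the receptors of excitatory synapses, and 39 genes for its scaffold and signalling proteins, with a few partners from inhibitory synapses and the ubiquitin ligase gene Ube3a, are described here. A member is any gene on that list, and its probe sets are those whose single symbol in the platform annotation is the member's name. Of the 39 genes, 36 were measured, by 104 of the 45037 probe sets tested and as 36 of 18193 named genes. Shank2, Ppp1r9b and Lrrc7 are not named in the table used here. Whole brains of postnatal day 3 pups were measured one per array, 10 WT and 10 Hdac4KO, each genotype with 5 males and 5 females by the labels. All pups came untreated from one colony on the B6CBAF1/OlaHsd background, and WT pups were littermates of the knock-outs. The Hdac4KO pups were homozygotes from intercrosses of heterozygous mice, so every cell of the body carried the mutation, and which stretch of Hdac4 the allele lacks was not stated in the sources read.

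In this mesh, MAGUK proteins (the Dlg genes) hold receptors and adhesion molecules, GKAP proteins (the Dlgap genes) join MAGUKs to Shank, and Shank joins Homer and actin. The calcium/calmodulin-dependent kinases (Camk2 genes) are the main signalling enzymes of the structure, while neuroligins, Lrrtm proteins and Slitrk proteins bind partners on the presynaptic side. At postnatal day 3 most synapses of the mouse brain have yet to form. HDAC4 is a class IIa histone deacetylase that is abundant in brain and known to hold MEF2 transcription factors inactive.

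The values are log2 signals. Hdac4 itself was lower in the Hdac4KO arrays at each of its 3 probe sets (log2 fold changes −1.39, −1.19 and −0.46; limma adjusted p 6.28e-07, 9.48e-07 and 0.0198), where WT replicate 8 and Hdac4KO replicate 10 by label nearly met at the second probe set (7.36 and 7.35). At the first and second of these probe sets, Hdac4KO replicate 10 read 7.43 and 7.35, where the other Hdac4KO arrays ran up to 6.59 and 6.74. In WT replicates 5 and 9 the sex-linked genes Xist and Kdm5d both went against the sex label. Hdac4KO replicate 10, labelled male, carried the signals of both sexes, with Xist at 12.27 (5.202 to 6.572 in the other arrays with a Kdm5d signal) and Kdm5d at 6.88 (2.82 to 3.145 in the other arrays with a high Xist signal). The cause was not tested. Neuronal markers were bright, with a mean log2 signal over the 8 markers of 12.37 to 12.44 in WT and 12.32 to 12.44 in Hdac4KO arrays. RNA integrity, read as the mean 3′ minus 5′ signal over the actin and Gapdh controls, ran from 0.154 to 0.234 in WT and from 0.181 to 0.262 in Hdac4KO arrays. None of the 39 genes lies on the chromosome that carries Hdac4.

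Few postsynaptic density genes passed the test, and shifts were small. Of the 104 probe sets, 3 passed as higher in Hdac4KO brains and 1 passed as lower (limma, adjusted p under 0.05). They belonged to Homer2, Dlgap1 and Baiap2, which rose by 0.14 to 0.19 on the log2 scale, and to Ube3a, which fell by 0.29. The share higher was 2.88% of the members' probe sets, against 1.05% of all probe sets, and the share lower was 0.962%, against 1.01%. At an unadjusted p under 0.05, 32 of the 104 were higher (30.8%, against 9.93% of all probe sets) and 9 were lower (8.65%, against 8.1%). Of the 104, 86 lay above the median of their array in at least 10 arrays, against 22603 of all 45037.

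Most members have several probe sets, so each was also judged by its brightest one, the probe set with the highest mean signal over the 20 arrays. By that measure Homer2 alone of 36 was higher, where 1.45% of all genes were, and none was lower, where 0.517% of all genes were. At an unadjusted p under 0.05, 16 were higher (44.4%, against 12.8% of all genes) and 4 lower (11.1%, against 6.19%). The log2 fold changes ran from −0.27 to 0.27 with a median of 0.06, and 27 of the 36 were above 0. Over all 18193 genes the median was 0.01 and 57.2% were above 0, and over the 11579 genes whose brightest probe set was not dim (dim being a signal over the median of its array in fewer than 10 arrays) the figures were 0.02 and 62.0%. Of those 11579 genes, 17.4% were higher and 6.85% lower at an unadjusted p under 0.05. Among the 35 members not dim the shares were 45.7% and 11.4%. In whole-brain RNA, fewer cells of a type and less RNA per cell cannot be told apart.

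**Figure D1:**
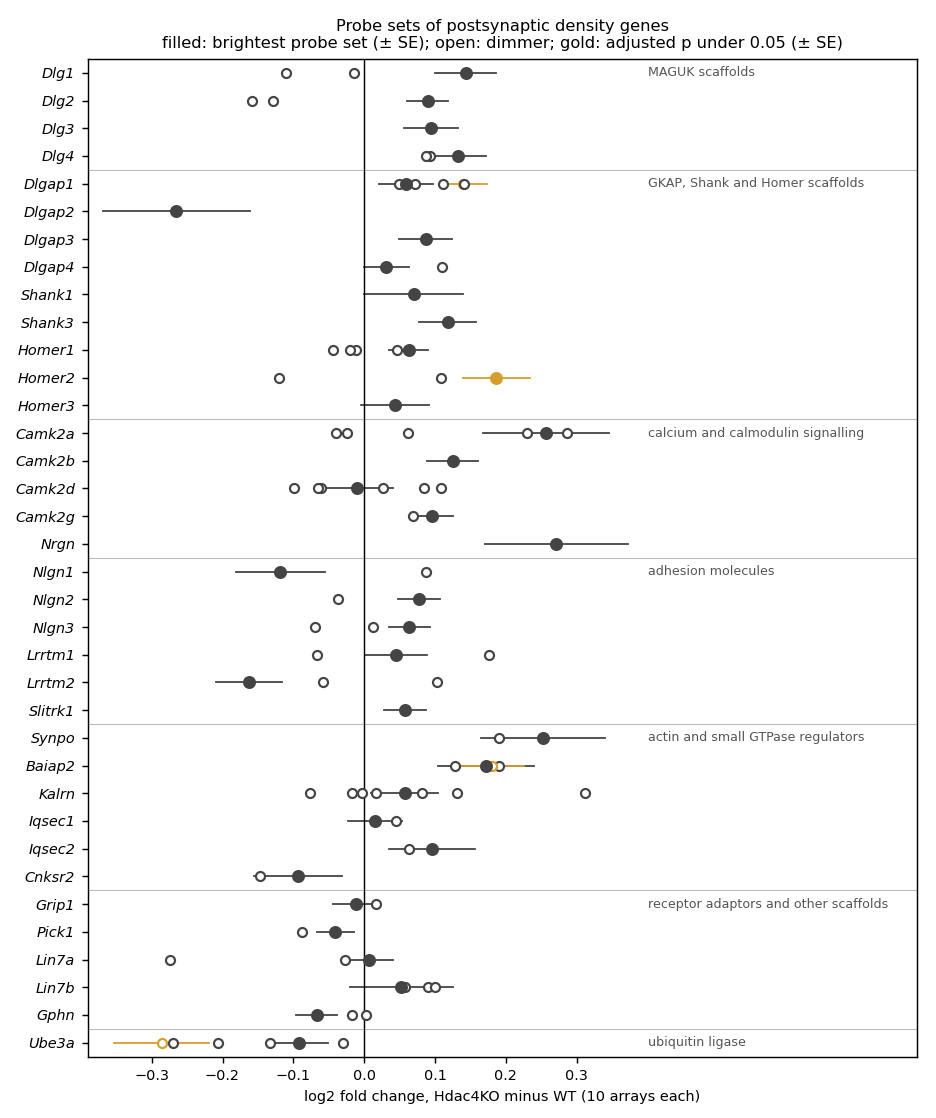
Change of the 104 probe sets of the 36 measured genes, as log2 signal in Hdac4KO minus WT (10 arrays each), in groups by role. Filled points are the brightest probe set of a gene with its SE, open points are dimmer ones, and gold marks the 4 probe sets past the threshold, of Dlgap1, Homer2, Baiap2 and Ube3a. Filled points of the MAGUK genes all lie above 0. Open points of several genes, among them Dlg1, Dlg2, Homer2, Lin7a and Camk2a, lie well to the left of the filled one.

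Homer2 encodes a scaffold that links Shank to metabotropic glutamate receptors. At its brightest probe set (1424367_a_at) the WT arrays ran from 9.79 to 10.2 (median 9.93) and the Hdac4KO arrays from 9.99 to 10.3 (median 10.1). Each of the 10 Hdac4KO arrays exceeded the WT mean, 3 of them above the highest WT array, so the groups overlapped. Homer2 rose by 0.19 on the log2 scale (SE 0.05, limma adjusted p = 0.0425). A dimmer probe set of Homer2 (1457671_at) stood at a log2 fold change, Hdac4KO minus WT, of 0.11 (adjusted p = 0.300) and another (1436110_at) at −0.12 (adjusted p = 0.460).

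Dlgap1 encodes a GKAP protein that joins MAGUKs to Shank. The probe set that passed (1429105_at) is the third brightest of its 6, with WT arrays from 9.58 to 9.75 (median 9.65) and Hdac4KO arrays from 9.68 to 9.91 (median 9.79). Of the 10 Hdac4KO arrays, 8 lay above every WT array. The log2 fold change was 0.14 (SE 0.03, limma adjusted p = 0.0367). At the brightest probe set of Dlgap1 (1436076_at) the WT arrays ran from 10.1 to 10.3 and the Hdac4KO arrays from 10.2 to 10.4, a difference of 0.06 (SE 0.04, adjusted p = 0.443). The other 4 stood between 0.05 and 0.14, so all 6 were above 0, and no difference from the brightest passed.

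Baiap2 encodes a membrane-bending protein that couples small GTPases to actin and binds Shank. Its passing probe set (1451027_at) had WT arrays from 7.15 to 7.47 (median 7.24) and Hdac4KO arrays from 7.26 to 7.61 (median 7.41). All 10 Hdac4KO arrays were above the WT mean and 4 above every WT array, and WT replicate 10 was the highest of its group. The log2 fold change was 0.18 (SE 0.04, limma adjusted p = 0.0398). At the brightest probe set of Baiap2 (1425656_a_at), the WT arrays ran from 7.97 to 8.36 (median 8.22) and the Hdac4KO arrays from 8.13 to 8.76 (median 8.33). There the difference was 0.17 (SE 0.07, adjusted p = 0.179), and the remaining probe sets stood at 0.19 (adjusted p = 0.0573) and 0.13 (adjusted p = 0.201). All 4 probe sets of Baiap2 were above 0, and no difference from the brightest passed.

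Ube3a encodes a ubiquitin ligase that neurons express mainly from the maternal allele. The probe set that passed (1425206_a_at) is its dimmest, below the median of the array in all 20 arrays, with WT arrays from 5.17 to 5.81 (median 5.60) and Hdac4KO arrays from 5.06 to 5.49 (median 5.24). No Hdac4KO array reached the WT mean, and 3 lay below every WT array. Ube3a fell by 0.29 on the log2 scale there (SE 0.07, limma adjusted p = 0.0317). At its brightest probe set (1416680_at) the WT arrays ran from 11.3 to 11.4 (median 11.3) and the Hdac4KO arrays from 11.02 to 11.39 (median 11.27). The difference was −0.09 (SE 0.04, adjusted p = 0.235). The other 4 stood between −0.27 and −0.03, so the 6 probe sets of Ube3a were all below 0.

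**Figure D2:**
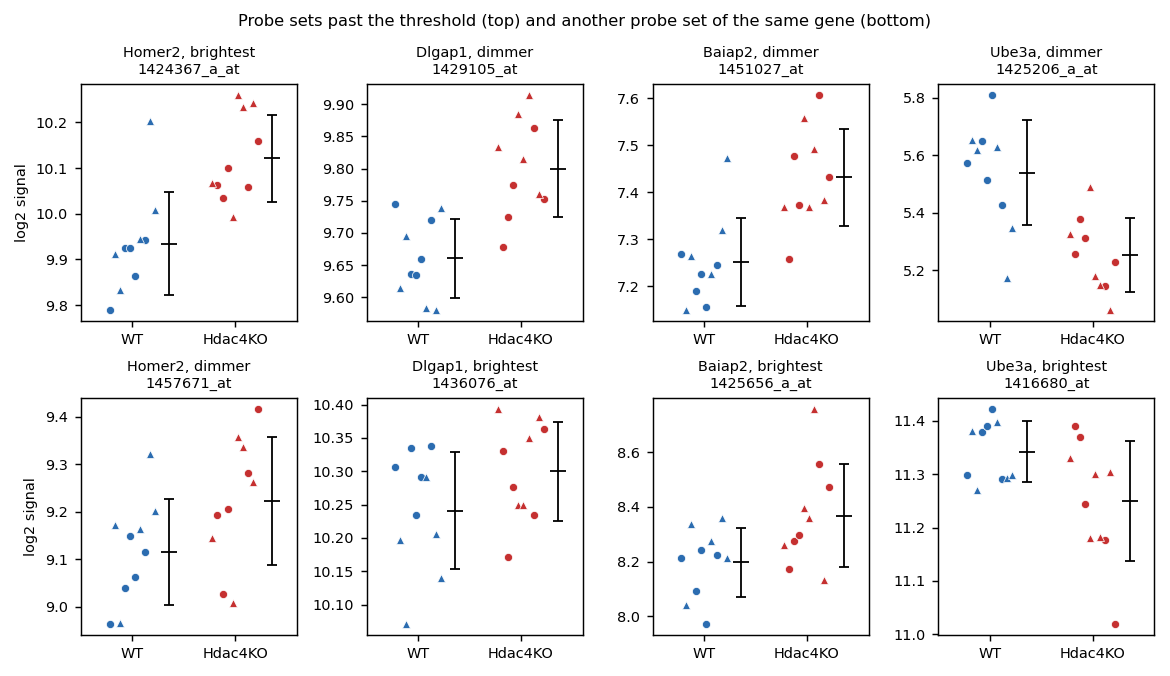
Log2 signal of every array at the 4 probe sets past the threshold (top) and at another probe set of the same gene (bottom), with WT in blue and Hdac4KO in red. Circles are brains labelled male, triangles brains labelled female, and each bar is the mean ± SD over 10 arrays. In each upper plot the genotypes overlap, with the least overlap for Dlgap1, where 8 of 10 Hdac4KO arrays lie above every WT array.

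Each of these 4 calls was lost when any one of 10 to 14 arrays was left out. Over all probe sets, leaving out each array in turn gave 184 to 991 higher and 167 to 724 lower, against 474 and 453 with all arrays. Without any one of WT replicates 2 to 7 or Hdac4KO replicates 5 to 9, the adjusted p of Dlgap1 was 0.0502 to 0.0733. For Homer2 it was 0.0593 to 0.0746 without any one of WT replicates 1 to 8 or Hdac4KO replicates 6 to 10. For Baiap2 the range was 0.0516 to 0.0768 without any one of WT replicates 1 to 8 or Hdac4KO replicate 3, 5, 7, 8, 9 or 10. For Ube3a it was 0.0515 to 0.0638 without any one of WT replicates 2 to 7 or Hdac4KO replicates 7 to 10. The fold changes themselves moved little over all alternatives, from 0.17 to 0.22 for Homer2, 0.13 to 0.15 for Dlgap1, 0.16 to 0.21 for Baiap2 and −0.33 to −0.26 for Ube3a. None of the 4 passed with the 3′ minus 5′ signal as a covariate, when 23 probe sets of the whole array were higher and 20 lower, or without WT replicate 8 and Hdac4KO replicate 10, when 157 were higher and 170 lower. The part of RNA integrity in these values was not tested further.

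The start regions of these 4 genes are printed because class IIa deacetylases act through promoter-bound factors. Each runs from 250 bases before to 50 bases after the outermost start in the RefSeq table (GRCm38.p6), 5′ to 3′ on the gene's strand: Dlgap1 at chr17:69968823-69969122 (+), Homer2 at chr7:81706876-81707175 (−), Baiap2 at chr11:119942842-119943141 (+) and Ube3a at chr7:59228500-59228799 (+). Capitals mark GC boxes, GGGCGG on either strand.
Dlgap1: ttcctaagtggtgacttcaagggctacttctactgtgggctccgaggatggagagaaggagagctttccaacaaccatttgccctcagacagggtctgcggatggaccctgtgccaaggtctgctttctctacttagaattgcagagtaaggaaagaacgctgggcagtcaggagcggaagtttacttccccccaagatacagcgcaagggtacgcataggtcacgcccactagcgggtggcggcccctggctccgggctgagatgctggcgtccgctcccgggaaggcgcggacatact
Homer2: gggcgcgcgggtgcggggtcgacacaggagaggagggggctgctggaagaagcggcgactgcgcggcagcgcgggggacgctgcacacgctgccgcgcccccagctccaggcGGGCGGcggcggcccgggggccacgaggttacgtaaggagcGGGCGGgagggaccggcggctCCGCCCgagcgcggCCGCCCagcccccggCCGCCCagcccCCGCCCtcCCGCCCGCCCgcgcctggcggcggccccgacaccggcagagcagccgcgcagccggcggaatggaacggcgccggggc
Baiap2: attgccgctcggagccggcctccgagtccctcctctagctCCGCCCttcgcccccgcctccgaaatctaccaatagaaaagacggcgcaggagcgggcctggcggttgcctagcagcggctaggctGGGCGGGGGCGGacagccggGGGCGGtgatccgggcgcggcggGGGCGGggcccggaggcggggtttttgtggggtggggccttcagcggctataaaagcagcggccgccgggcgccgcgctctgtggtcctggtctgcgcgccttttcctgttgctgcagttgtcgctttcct
Ube3a: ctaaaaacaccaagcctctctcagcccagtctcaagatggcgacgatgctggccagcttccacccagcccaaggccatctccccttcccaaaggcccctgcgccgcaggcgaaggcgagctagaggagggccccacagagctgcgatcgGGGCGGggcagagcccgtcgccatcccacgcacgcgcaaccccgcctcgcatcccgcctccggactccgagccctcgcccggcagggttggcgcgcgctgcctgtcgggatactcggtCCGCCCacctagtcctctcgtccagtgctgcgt
The window of Homer2 holds 49 CG dinucleotides and 8 GC boxes, that of Baiap2 34 and 5, that of Ube3a 29 and 2, and that of Dlgap1 15 and none.

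Of the 39 genes, 31 were matched in that table, which lists 27025 genes, and Dlgap2, Shank1, Shank2, Camk2a, Camk2g, Nlgn3, Synpo and Lrrtm2 were not. A GC box was present in 23 of the 31 (74.2%, against 38.2% of all genes), and the median number of CG dinucleotides was 15 over the members' 50 start regions and 7 over all 32851. The EGR motif GCGNGGGCG, whose letters overlap those of a GC box, was in 8 of the 31 (25.8%, against 6.27%). TATAAA was in 5 (16.1%, against 15.7%) and the cyclic AMP response element TGACGTCA in none (against 2.03%), each searched on both strands. The MEF2 motif, of 10 letters, was found in 2 of the 31, Dlg1 and Dlg2 (6.45%, against 3.7%). In Dlg2 (chr7:91090536-91090835, +) the match is CTATATATAG, 9 bases after the start, and in Dlg1 (chr16:31754100-31754399, +) it is TTATATTTAA, 106 bases before it. A match describes letters only. A gene was counted if any of its start regions held the motif. The members have more start regions per gene than all genes do, which by itself can raise their shares.

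All 4 MAGUK genes were above 0 at their brightest probe sets, although none passed. Dlg1, which traffics AMPA receptors, stood at 0.14 (limma adjusted p = 0.0791), and Dlg4, which encodes the most abundant MAGUK of mature excitatory synapses, at 0.13 (adjusted p = 0.0779). For Dlg4 the WT arrays ran from 10.03 to 10.28 (median 10.12) and the Hdac4KO arrays from 10.1 to 10.4 (median 10.3), with 9 of 10 Hdac4KO arrays above the WT mean. Dlg3, the MAGUK gene linked to X-chromosomal intellectual disability, stood at 0.09 (adjusted p = 0.183), and Dlg2 at 0.09 (adjusted p = 0.104). With the mean of all probe sets of a gene in place of the brightest, Dlg4 was the member that passed (0.10, limma adjusted p = 0.0406) and Homer2 did not (0.06, adjusted p = 0.550). The share of all genes that passed by that mean is not given here, so this count has no background beside it.

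Within Dlg2, a MAGUK scaffold of NMDA receptors and potassium channels, the probe sets moved apart. At the brightest one (1437927_at) the WT arrays ran from 10.5 to 10.6 (median 10.5) and the Hdac4KO arrays from 10.5 to 10.7 (median 10.6), all 10 Hdac4KO arrays above the WT mean. At a dimmer one (1421199_at) the WT arrays ran from 6.33 to 6.59 (median 6.44) and the Hdac4KO arrays from 6.20 to 6.42 (median 6.31), all 10 below the WT mean and 6 below every WT array. Its signal was near the array median, above it in 17 of 20 arrays. Neither probe set passed alone (log2 fold changes 0.09 and −0.13, adjusted p 0.104 and 0.0609). The difference between them, tested over all 16752 dimmer probe sets, fell by 0.22 on the log2 scale (SE 0.04, limma adjusted p = 0.00859). This difference of Dlg2 passed under all 30 alternatives run on it, with adjusted p-values from 0.00351 to 0.0237, including the 3′ to 5′ covariate (0.0180) and the fit without WT replicate 8 and Hdac4KO replicate 10 (0.0198). A further Dlg2 probe set (1421200_at), below the array median in all 20 arrays, stood at −0.16 (adjusted p = 0.299), and its difference from the brightest at −0.25 (adjusted p = 0.0859). Which transcripts of Dlg2 each probe set detects was not examined.

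Of the members' 68 dimmer probe sets, 4 fell relative to the brightest one of their gene (5.88%, against 3.72% of all dimmer probe sets) and 1 rose (1.47%, against 1.33%). In Homer2 the difference between 1436110_at and the brightest was −0.31 (SE 0.08, limma adjusted p = 0.0354). The dimmer probe set of Homer2 had WT arrays from 6.62 to 7.03 (median 6.87) and Hdac4KO arrays from 6.42 to 7.05 (median 6.84). The groups overlapped at that probe set too.

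Lin7a encodes a partner of Cask in receptor trafficking. A dimmer probe set of it (1456656_at) had WT arrays from 8.35 to 8.66 (median 8.46) and Hdac4KO arrays from 7.74 to 8.45 (median 8.21). All 10 Hdac4KO arrays were below the WT mean and 6 below every WT array. Its own log2 fold change was −0.27 (SE 0.08, limma adjusted p = 0.0759). The brightest probe set of Lin7a, with WT arrays from 10.1 to 10.4 (median 10.3) and Hdac4KO arrays from 10.2 to 10.4 (median 10.3), stood at 0.01 (adjusted p = 0.942), and the difference at −0.28 (SE 0.08, adjusted p = 0.0460). A further Lin7a probe set (1438450_at) stood at −0.03 (adjusted p = 0.828), and its difference from the brightest at −0.03 (adjusted p = 0.726).

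In Dlg1, a dimmer probe set (1450768_at) had WT arrays from 7.64 to 7.82 (median 7.75) and Hdac4KO arrays from 7.52 to 7.93 (median 7.73). Its log2 fold change was −0.01 (limma adjusted p = 0.907). At the brightest one of Dlg1 (1415691_at) the WT arrays ran from 8.93 to 9.15 (median 9.07) and the Hdac4KO arrays from 8.999 to 9.394 (median 9.23), 7 of 10 above every WT array. The difference was −0.16 (SE 0.05, limma adjusted p = 0.0496), although neither probe set of Dlg1 passed alone.

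Lrrtm2, a ligand of neurexins, went the other way. Its brightest probe set (1455489_at) had WT arrays from 8.48 to 8.82 (median 8.74) and Hdac4KO arrays from 8.34 to 8.68 (median 8.54), none of the latter above the WT mean (log2 fold change −0.16, limma adjusted p = 0.0662). A dimmer one (1437787_at) ran from 8.20 to 8.55 (median 8.40) in WT and from 8.37 to 8.65 (median 8.51) in Hdac4KO arrays (log2 fold change 0.10, adjusted p = 0.256). The difference rose by 0.27 (SE 0.07, adjusted p = 0.0319). A further Lrrtm2 probe set (1456637_at) stood at −0.06 (adjusted p = 0.591), and its difference from the brightest at 0.10 (adjusted p = 0.266).

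Leaving out single arrays ended each of these calls except that of Dlg2. For Homer2 the adjusted p was then 0.0517 to 0.0661 (without any one of WT replicate 1, 2, 4, 5 or 7, or Hdac4KO replicate 5, 7, 8, 9 or 10). For Lin7a it was 0.05003 to 0.0849 (WT replicates 1 to 7, Hdac4KO replicates 5 to 10). For Dlg1 it was 0.0548 to 0.0892 (WT replicates 1 to 8, Hdac4KO replicate 1, 3, 6, 7, 9 or 10). For Lrrtm2 it was 0.0510 to 0.0596 (WT replicate 2, 3, 5, 6 or 7, Hdac4KO replicate 5, 8, 9 or 10). Of 30 alternatives, 16 kept the call of Homer2, 12 that of Lin7a, 10 that of Dlg1 and 19 that of Lrrtm2. In 15 of the 27 members with several probe sets, some were above 0 and some below. The share of all genes with such mixed signs is not given here. Of the members' dimmer probe sets, 61.8% had a lower change than the brightest of their gene, against 57.7% over all genes.

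**Figure D3:**
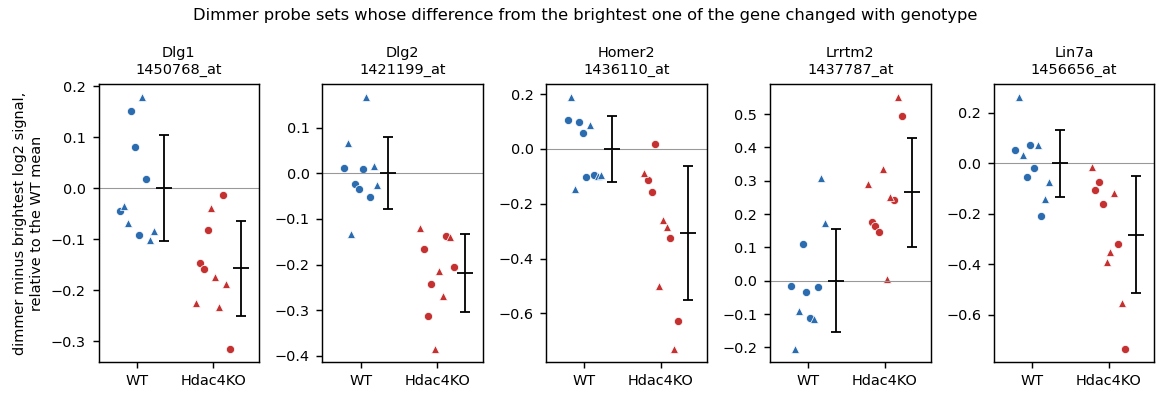
Difference between a dimmer probe set and the brightest one of the same gene in every array (log2 signal, relative to the WT mean of that difference), for the 5 probe sets where it changed with genotype. WT is blue, Hdac4KO red, circles are labelled male and triangles female, and each bar is the mean ± SD over 10 arrays. Dlg1, Dlg2, Homer2 and Lin7a lie lower in Hdac4KO and Lrrtm2 higher, and for Dlg2 most Hdac4KO arrays lie below all WT arrays.

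Of the 9 measured scaffolds of the GKAP, Shank and Homer groups, 8 were above 0 at the brightest probe set, with a median of 0.06. Shank3, the scaffold gene deleted in Phelan-McDermid syndrome, had WT arrays from 8.86 to 9.10 (median 8.98) and Hdac4KO arrays from 8.97 to 9.26 (median 9.07), with a log2 fold change of 0.12 (SE 0.04, limma adjusted p = 0.123). Shank1 stood at 0.07 and its only probe set lay below the array median in all 20 arrays. Dlgap3 stood at 0.09, Dlgap4 at 0.03, Homer1 at 0.06 and Homer3 at 0.04. A dimmer probe set of Dlgap4 reached 0.11 (adjusted p = 0.0577).

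Dlgap2 was the exception among the scaffolds, with the lowest value of all brightest probe sets. Its WT arrays ran from 6.35 to 6.99 (median 6.76) and its Hdac4KO arrays from 5.77 to 6.73 (median 6.58). No Hdac4KO array reached the WT mean, and the log2 fold change was −0.27 (SE 0.10, limma adjusted p = 0.173). The spread was wide in both genotypes (SD 0.20 in WT and 0.29 in Hdac4KO arrays).

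The largest upward shifts belonged to genes of calcium and calmodulin signalling and of the dendritic spine, and none of them passed. Nrgn encodes neurogranin, which holds calmodulin in spines. Its WT arrays ran from 10.9 to 11.5 (median 11.2) and its Hdac4KO arrays from 11.1 to 11.8 (median 11.4), with a log2 fold change of 0.27 (SE 0.10, limma adjusted p = 0.153). Camk2a encodes the alpha subunit of the kinase, whose RNA is carried into dendrites. Its brightest probe set ran from 10.2 to 10.7 (median 10.4) in WT and from 10.4 to 11.1 (median 10.7) in Hdac4KO arrays, a difference of 0.26 (SE 0.09, limma adjusted p = 0.123). Of the other Camk2a probe sets, those at 8.53 and 6.55 in the median WT array stood at 0.23 (adjusted p = 0.120) and 0.29 (adjusted p = 0.0782), while the 3 dimmest stood between −0.04 and 0.06.

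Synpo encodes synaptopodin, an actin-binding protein of the spine apparatus. Its brightest probe set ran from 6.93 to 7.35 (median 7.04) in WT and from 7.05 to 7.75 (median 7.33) in Hdac4KO arrays, a log2 fold change of 0.25 (SE 0.09, limma adjusted p = 0.123). Kalrn, which takes part in the growth of dendritic spines, has 8 probe sets. The one with the largest shift (1436066_at) ran from 7.41 to 8.01 (median 7.67) in WT and from 7.58 to 8.42 (median 7.95) in Hdac4KO arrays, at 0.31 (SE 0.10, adjusted p = 0.107), while the brightest of Kalrn stood at 0.06 (adjusted p = 0.5684).

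In Nrgn and Camk2a the Hdac4KO arrays above every WT array were replicates 5 to 8 and 10, while replicates 1 to 4 and 9 lay among the WT arrays. For Synpo they were replicates 6, 7, 8 and 10, and for that Kalrn probe set replicates 5, 7, 8 and 10. The SD of the Hdac4KO arrays was 0.30 for Nrgn and 0.26 for both Camk2a and Synpo, against 0.17, 0.14 and 0.14 in WT arrays. Over the 36 brightest probe sets the Hdac4KO SD was above the WT SD in 25 (69.4%, against 61% of all genes). The replicates concerned carry both sex labels. Hdac4KO replicate 10, the array with both sexes' signals and the highest Hdac4 signal of its group at the first and second Hdac4 probe sets, is among them. Without it the log2 fold changes were 0.25 for Nrgn, 0.22 for Camk2a, 0.22 for Synpo and 0.28 for the Kalrn probe set (limma adjusted p 0.227, 0.194, 0.194 and 0.169).

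**Figure D4:**
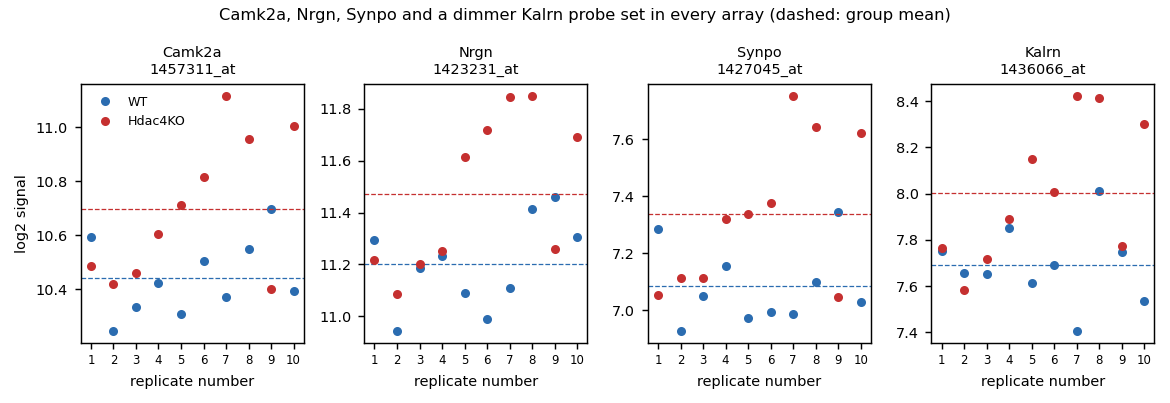
Log2 signal of Camk2a, Nrgn, Synpo (brightest probe sets) and of a dimmer Kalrn probe set in every array, by replicate number, which only names an array and pairs none. Blue points are WT, red points Hdac4KO, and dashed lines give the mean of 10 arrays. Hdac4KO replicates 7, 8 and 10 lie above every WT array in all 4 plots, and replicates 1, 2, 3 and 9 lie among the WT arrays.

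Of the remaining kinase genes, Camk2b, the beta subunit that binds actin, stood at 0.13 (limma adjusted p = 0.0683), with WT arrays from 10.6 to 10.8 (median 10.7), Hdac4KO arrays from 10.7 to 10.9 (median 10.8) and all 10 Hdac4KO arrays above the WT mean. Camk2g stood at 0.10 (adjusted p = 0.0862) and Camk2d, a subunit also found widely outside the brain, at −0.01. The median of the 5 calcium and calmodulin genes was 0.13, with 4 above 0.

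Adhesion molecules were mixed, with 4 of 6 above 0 and a median of 0.05. The neuroligins, postsynaptic receptors of neurexins, stood at −0.12 for Nlgn1 of excitatory synapses, 0.08 for Nlgn2 of inhibitory synapses and 0.06 for Nlgn3. Lrrtm1 stood at 0.05 and Slitrk1, which binds receptor-type tyrosine phosphatases, at 0.06. Adjusted p-values of these 5 ran from 0.165 to 0.640. Among actin and small GTPase regulators 5 of 6 were above 0 (median 0.08): besides Synpo, Baiap2 and Kalrn, the Arf exchange factors Iqsec1 and Iqsec2 stood at 0.02 and 0.10, and Cnksr2, a scaffold of Ras signalling, at −0.09.

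Receptor adaptors had the role group median closest to 0. Grip1, which holds AMPA receptors, stood at −0.01 and Pick1, which brings protein kinase C to them, at −0.04. Gphn, which encodes gephyrin, the scaffold of inhibitory synapses, stood at −0.07 (limma adjusted p = 0.226), with 9 of 10 Hdac4KO arrays below the WT mean. Lin7b stood at 0.05. The median over this group of 5 was −0.01, against 0.11 over the 4 MAGUK genes.

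**Figure D5:**
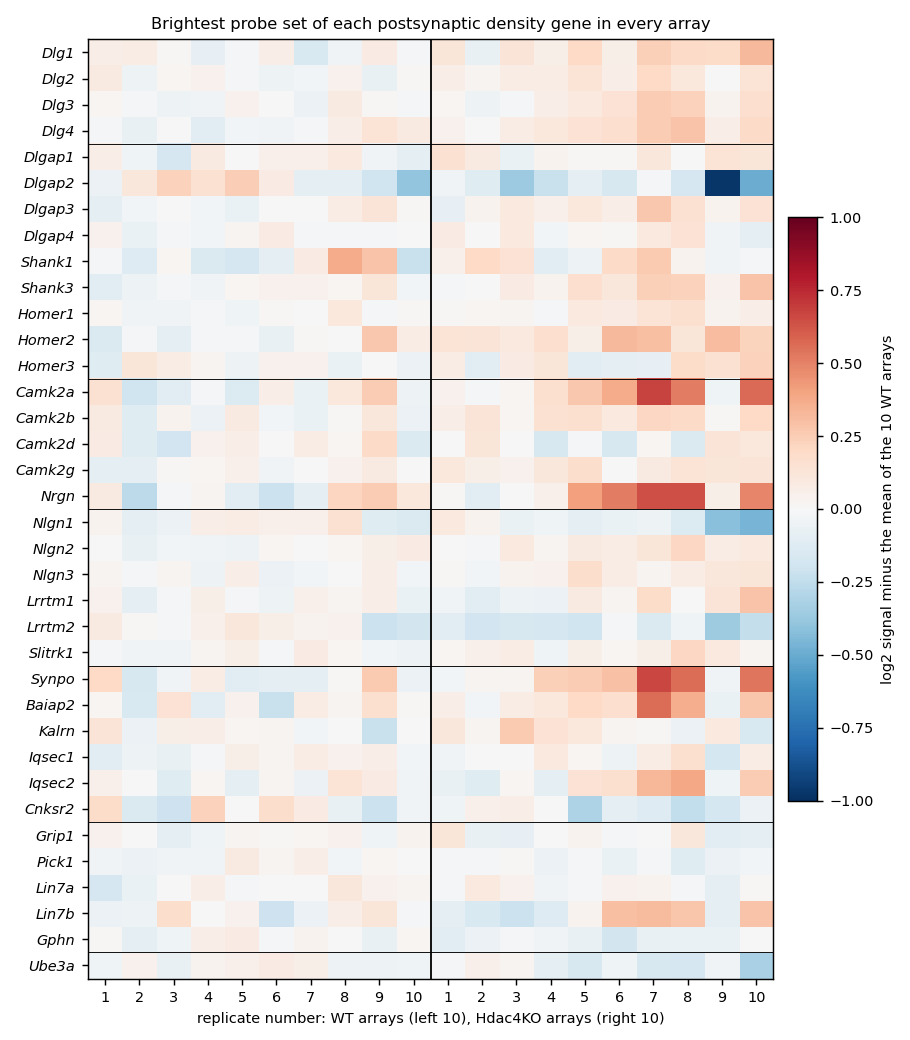
Log2 signal of the brightest probe set of each of the 36 genes in every array, relative to the mean of the 10 WT arrays (red higher, blue lower), with genes in the same role groups as in the plot of fold changes. The red columns of Hdac4KO replicates 7, 8 and 10 stand out in the rows of Camk2a, Nrgn, Synpo and Iqsec2, and the darkest blue cell is Dlgap2 in Hdac4KO replicate 9.

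Averaged over the 36 brightest probe sets, an array lay between −0.06 and 0.04 of the WT mean in WT and between −0.03 and 0.16 in Hdac4KO brains. The highest were Hdac4KO replicates 7 (0.16), 8 (0.13) and 10 (0.09), and Hdac4KO replicates 9 (−0.03) and 2 (−0.00399) were the lowest of their genotype. The genotypes overlapped, and Hdac4KO replicate 7 with 27 of 36 genes above the WT mean matched WT replicate 8, which also had 27.

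The sexes were compared next. No probe set of the members, and 0% of all probe sets, passed for an interaction of genotype with labelled sex in limma, and at an unadjusted p under 0.05 there were 2 of 104 (1.92%, against 5.35% of all), 1 each in Dlgap1 and Homer1. Within males and within females no member passed. How many of all probe sets passed within a sex is not given here, so this is no result particular to the members. The log2 fold changes were 0.19 in males and 0.18 in females for Homer2, 0.21 and 0.15 for Baiap2, −0.33 and −0.24 for Ube3a, and 0.08 and 0.20 for Dlgap1, where the difference between the sexes had an unadjusted p of 0.0786 (adjusted p = 0.917). WT replicates 5 and 9, which go against their sex label, and Hdac4KO replicate 10, which carries both sexes' signals, are counted by label here.

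Other genes of the postsynaptic density, a list of 55 of which 48 were measured, had 4 higher and none lower at the brightest probe set (limma), against 1.45% and 0.517% of all genes. At an unadjusted p under 0.05 there were 17 higher (35.4%, against 12.8% of all genes and 17.4% of those not dim). There was 1 lower (2.08%, against 6.19% and 6.85%), and the median was 0.03. Git1, an Arf GTPase-activating scaffold, rose by 0.19 (adjusted p = 0.0232), and the MAGUK-like kinase gene Cask, which binds neurexins and Lin7, rose by 0.14 (adjusted p = 0.0198). Adam22, which ties the secreted protein Lgi1 to MAGUKs, rose by 0.15 (adjusted p = 0.0198). The lowest p among those below 0 was that of Dlgap5, which despite its name acts in mitosis (−0.21, adjusted p = 0.0638).

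Of the presynaptic and secreted partners of members, 10 of 11 were measured and 9 lay above 0 (median 0.07), but limma called none. At an unadjusted p under 0.05 there were 5 on the higher side (50%, against 12.8% of all genes and 17.4% of those not dim). There were 0 on the lower side (against 6.19% and 6.85%). Nrxn2, a neurexin, stood at 0.12 (adjusted p = 0.0572), Il1rap, a synaptic adhesion and cytokine receptor subunit, at 0.14 (adjusted p = 0.0651), and Lgi1 at 0.19 (adjusted p = 0.0711). Cbln1, which bridges neurexins to delta glutamate receptors, stood at −0.08.

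Cell type markers were read in the same way at their brightest probe sets. Over all genes, 1.45% were higher, 0.517% were lower and 57.2% lay above 0. The 8 neuronal markers had a median of 0.00 with 4 above 0, none higher and 1 lower, the neurofilament gene Nefl (−0.28, limma adjusted p = 0.0427). Of 7 microglial markers 6 were above 0 and Tmem119 was higher (0.26, adjusted p = 0.0179), with a mean signal over the list of 7.80 to 8.07 in WT and 7.85 to 8.30 in Hdac4KO arrays. Tmem119 had a low signal, above the array median in 12 of 20 arrays. Of 4 choroid plexus markers 3 were below 0 and Ttr, for transthyretin, was lower (−0.14, adjusted p = 0.0420), with a mean of 8.09 to 8.55 in WT and 8.07 to 8.31 in Hdac4KO arrays. Markers of astrocytes (7), the oligodendrocyte lineage (8), endothelial cells (5), erythroid cells (3) and muscle and bone (4) gave no call, and of the last 4 the muscle genes Myh3 and Ckm lay below the array median in all 20 arrays while Acta1 and Col1a1, for skeletal actin and a collagen chain, lay above it in all 20. The part of cell composition in the members' shifts was not tested.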

How the data were processed

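Whole-brain RNA was hybridized to Affymetrix mouse genome arrays, labelled by the authors from 200 ng of total RNA. The deposited log2 signals, 1 per probe set and array, are alike in median between arrays and were used as they stand; the authors' summary and normalization were not stated in the sources read. Of 45101 probe sets, 64 controls were left out. A table of the platform annotation gives 34945 of the rest 1 symbol, 932 several and 9160 none, and only those with 1 were named. Genotypes (10 arrays each) were compared in R 4.3.3 by limma 3.58.1 (lmFit, then eBayes), with Benjamini-Hochberg adjustment over all 45037 probe sets (also for the brightest of each of 18193 genes) or, for dimmer minus brightest differences, over 16752. A call is an adjusted p under 0.05. The methods name a 2-tailed t-test, which was run as an alternative. The steps were checked on simulated data. The number of arrays limits the precision.

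Groups came from the labels. Replicate numbers are shared by both genotypes but pair few arrays: 1 of 10 pairs correlated above 0.1 (−0.149 to 0.162). The members, lists and alternatives were chosen with earlier results of these data known. Named in full are members that passed, the brightest probe set of the same gene and those that moved apart from it; other postsynaptic genes are named up to 3 by p in each direction. Genes named beyond this, such as Nrgn, Camk2a, Synpo, Kalrn, Dlgap2 and the markers, were chosen after their values were seen. A probe set is dim if it is above the array median in fewer than 10 arrays. Start regions came from RefSeq (GRCm38.p6), read with pandas 2.3.3. Alternatives were the t-test, trend and robust eBayes, sex or 3′ minus 5′ signal as a covariate, a replicate block, quantile normalization, median centring, dim probe sets left out, array weights, each array left out in turn, 2 sets of arrays left out together, and another choice of probe set per gene.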

Additional observations from a re-analysis of the deposited data

Results flagged for a closer look

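A lone array at the edge of its group was looked for in 88 groups of 10 arrays, and 4 were found, where chance flags about 1 in 20. In WT brains replicate 9 was highest for Homer2 (10.2, next 10.01), replicate 10 for the passing Baiap2 probe set (7.47, next 7.32) and replicate 8 for Homer1 (10.53, next 10.45). In Hdac4KO brains replicate 9 was lowest for Dlgap2 (5.77, next 6.25). Leaving out the array in question gave an adjusted p of 0.00908 for Homer2 and 0.0163 for Baiap2 from limma, against 0.0425 and 0.0398 with all arrays. Each is the highest WT array of a gene higher in Hdac4KO brains, so leaving it out widens the difference by construction and lends the call no support. Over all probe sets, 665 were higher and 681 lower without WT replicate 9, and 560 and 518 without WT replicate 10, against 474 and 453. The refits for Homer1 and Dlgap2 are not given here.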

How the results depend on the processing

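Over the whole array, 474 of 45037 probe sets were higher and 453 lower. With all arrays, 3 probe sets of members were higher and 1 lower, 1 and 0 at the brightest probe set, and 4 dimmer probe sets moved below and 1 above the brightest. In that order, trend and robust eBayes gave 8 and 2, then 4 and 1, with no change in the last pair, and array weights gave 6 and 4, then 3 and 1, while the calls over all probe sets moved to 765 and 620 and to 789 and 712. With dim probe sets left out, so that fewer were tested, the counts were 11 and 3, then 6 and 1, with 996 and 678 over the 22603 tested. The methods' t-test gave 5 higher, 2 higher at the brightest, and 2 moving below, with 609 higher and 393 lower over all probe sets. With the 3′ minus 5′ signal as a covariate, or without WT replicate 8 and Hdac4KO replicate 10, the counts were 0 and 0, then 0 and 0, then 1 and 0. The calls over all probe sets were 23 and 20 with that covariate, and 157 and 170 without those arrays. Without WT replicates 5 and 9 and Hdac4KO replicate 10, 1 was higher and 2 moved below, and with sex as a covariate 2 moved below. The calls over all probe sets were 174 and 241 without those arrays, and 439 and 416 with sex as a covariate. Median centring, with 374 higher and 504 lower over all probe sets, gave 0 higher at the brightest probe set, and so did the most variable probe set per gene. With the replicate block, 3 were lower and 1 of these at the brightest probe set, although the numbers share little beyond a name. Over all probe sets the block gave 308 higher and 640 lower. Without single arrays the counts ran from 0 to 7 higher and 0 to 2 lower, 0 to 3 and 0 to 1 at the brightest probe set, and 1 to 6 below and 0 to 2 above it. In the same fits the calls over all probe sets ran from 184 to 991 higher and from 167 to 724 lower. The highest number of higher probe sets, among members and over the whole array, came without Hdac4KO replicate 2. The cause of these moves was not tested. The count of 0 for the interaction with sex was the same under the alternatives run on it. No named probe set changed direction past the threshold. The median over the 36 members stayed between 0.05 and 0.07, with 25 to 28 above 0. Among the 21 named probe sets and differences, the call or its absence was as with all arrays in 507 of 645 comparisons. It was lost in 123 and gained in 15. Only a result called with all arrays can be lost, and the losses fell on 8 such results. The call of Dlgap1 was kept in 16 of 31 alternatives, that of Homer2 in 15 of 31, that of Baiap2 in 14 of 31 and that of Ube3a in 18 of 30.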
